A study of Mus musculus with 4 samples.

Results

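Histidine and histamine metabolism enzymes were followed in single-nucleus RNA libraries of the mouse kidney: Hdc, Hnmt, Hal, Uroc1, Amdhd1 and Cndp1, 6 of the 25636 genes counted. They were taken by gene symbol, and each symbol matched 1 gene ID. The members were selected on their strain differences in UMIs in these libraries, so their levels and strain ratios are a description and carry no test. Of the 6, 5 held at least 50 unique molecular identifiers (UMIs, tags that count each captured RNA molecule once) over the proximal tubule-like nuclei of the libraries, and Hal did not.

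The study set MRL/lpr mice, a lupus-prone strain with the lpr mutation of Fas, a gene for a death receptor, against C57BL/6 mice, with renal cortex as the tissue. The 4 groups were MRL/lpr at 6 weeks, C57BL/6 at 6 weeks, MRL/lpr at 10 weeks and C57BL/6 at 10 weeks, all female, with 1 library of each. RNA of nuclei was primed with poly-dT in droplets and read at its 3′ end, and the number of mice behind a library is not given in the sources used here. No group of MRL mice had normal Fas, so the effects of the Fas mutation, of other genes of the strain and of disease on a ratio cannot be told apart. With 1 library in a group no ratio has a replicate check, and the intervals below are 95% intervals of counting error only.

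Histidine has several fates in the kidney. Histidine decarboxylase (Hdc) turns it into histamine, which histamine N-methyltransferase (Hnmt) inactivates. Histidine ammonia-lyase (Hal), urocanate hydratase (Uroc1) and imidazolonepropionase (Amdhd1) are consecutive enzymes that break it down towards glutamate, a path best known from liver and, for Hal, skin. Carnosinase (Cndp1) releases histidine from the dipeptide carnosine. Mouse kidney is known to make histamine in the proximal tubule, and inbred strains are known to differ in the activity of its Hdc.

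The upstream sequences of Hdc, Uroc1 and Amdhd1 are shown because these were the members whose level in the proximal tubule differed at least 2-fold between strains at both ages. Each line holds the 250 bases before the gene start, 5′ to 3′ on the strand of the gene, from RefSeq on build GRCm38.p6, which is C57BL/6J sequence. The MRL/lpr sequence was not read. Capitals mark matches on either strand to CAAAGTNCA, a form of the site read by the hepatocyte nuclear factor HNF4, to GTTAAT, a half-site of HNF1, or to TATAAN, the core of a TATA box.
Hdc, chr2:126618679-126618928, minus strand: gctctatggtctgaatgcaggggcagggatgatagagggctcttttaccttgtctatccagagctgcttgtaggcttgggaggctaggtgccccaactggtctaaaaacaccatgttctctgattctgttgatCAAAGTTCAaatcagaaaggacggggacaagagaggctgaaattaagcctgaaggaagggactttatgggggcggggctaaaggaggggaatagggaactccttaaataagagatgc
Uroc1, chr6:90333039-90333288, plus strand: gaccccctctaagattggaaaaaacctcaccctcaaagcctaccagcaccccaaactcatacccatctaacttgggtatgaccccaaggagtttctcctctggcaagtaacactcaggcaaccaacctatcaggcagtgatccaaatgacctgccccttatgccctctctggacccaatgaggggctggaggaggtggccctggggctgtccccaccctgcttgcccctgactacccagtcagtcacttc
Amdhd1, chr10:93540034-93540283, minus strand: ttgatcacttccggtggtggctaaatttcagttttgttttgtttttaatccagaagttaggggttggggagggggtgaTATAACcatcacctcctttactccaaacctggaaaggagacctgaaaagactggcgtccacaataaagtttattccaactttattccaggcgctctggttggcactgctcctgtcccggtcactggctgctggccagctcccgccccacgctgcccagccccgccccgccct
The Hdc window held 1 CAAAGTNCA match, 117 to 109 bases before the start, and 1.19% of the 32851 RefSeq windows of this length held one. Amdhd1 held 1 TATAAN match, 172 to 167 bases before its start, against 22.7% of all windows with one. None of the 3 motifs was found in the Uroc1 window, and GTTAAT, present in 6.43% of all windows, was in none of the 3. These matches describe letters and not bound sites.

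The libraries held 9365 to 10182 barcodes and 6466973 to 7660682 UMIs. Barcodes with at least 200 genes and at most 10% mitochondrial UMIs were kept, 38481 of 39074. Each nucleus took the class with most UMIs of its marker genes, and class names stand for that likeness only. Nuclei with markers of another class at more than 1 in 3 of the leading count were left out as mixed, 3601 in all, and 2188 had too few marker UMIs. Proximal tubule-like nuclei were 60.6% of kept nuclei in MRL/lpr and 42.1% in C57BL/6 at 6 weeks, and 57.8% in MRL/lpr and 45.3% in C57BL/6 at 10 weeks. Pairs of libraries shared 112 to 143 barcode sequences. Levels are given as CPM, the UMIs of a gene per 1000000 UMIs of the class, summed over its nuclei in each library.

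Proximal tubule-like nuclei were split by UMIs of 6 genes of the first segment (S1) and 8 of the last segment (S3). S3-like nuclei numbered 337 in MRL/lpr and 215 in C57BL/6 at 6 weeks, and 320 in MRL/lpr and 349 in C57BL/6 at 10 weeks, and S1-like nuclei 3981 in MRL/lpr and 3486 in C57BL/6 at 6 weeks, and 4325 in MRL/lpr and 3237 in C57BL/6 at 10 weeks. The S3-like class rested mainly on Napsa, which gave 53.5% to 60.0% of its S3 marker UMIs. Slc7a13, a defining S3 gene, was almost absent from it, with 15 UMIs in MRL/lpr and 0 in C57BL/6 at 6 weeks, and 1 in MRL/lpr and 0 in C57BL/6 at 10 weeks. Deposited barcodes started at 175 UMIs in MRL/lpr and 228 in C57BL/6 at 10 weeks and at 209 in C57BL/6 at 6 weeks, with a higher start in MRL/lpr at 6 weeks.

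In proximal tubule-like nuclei Hdc was far higher in MRL/lpr at both ages, Uroc1 and Amdhd1 were lower, and Cndp1 was higher by a smaller amount. Hal, with few UMIs, was on the higher side in MRL/lpr and Hnmt on the lower. At least 2-fold higher at both ages was 1 member, Hdc, as were 2.43% of the 12280 genes that reached 50 UMIs in these nuclei. At least 2-fold lower at both ages were 2 members, Uroc1 and Amdhd1, as were 1.86% of these genes. Since the members were chosen with this contrast known, nothing is read from these shares.

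**Figure D1:**
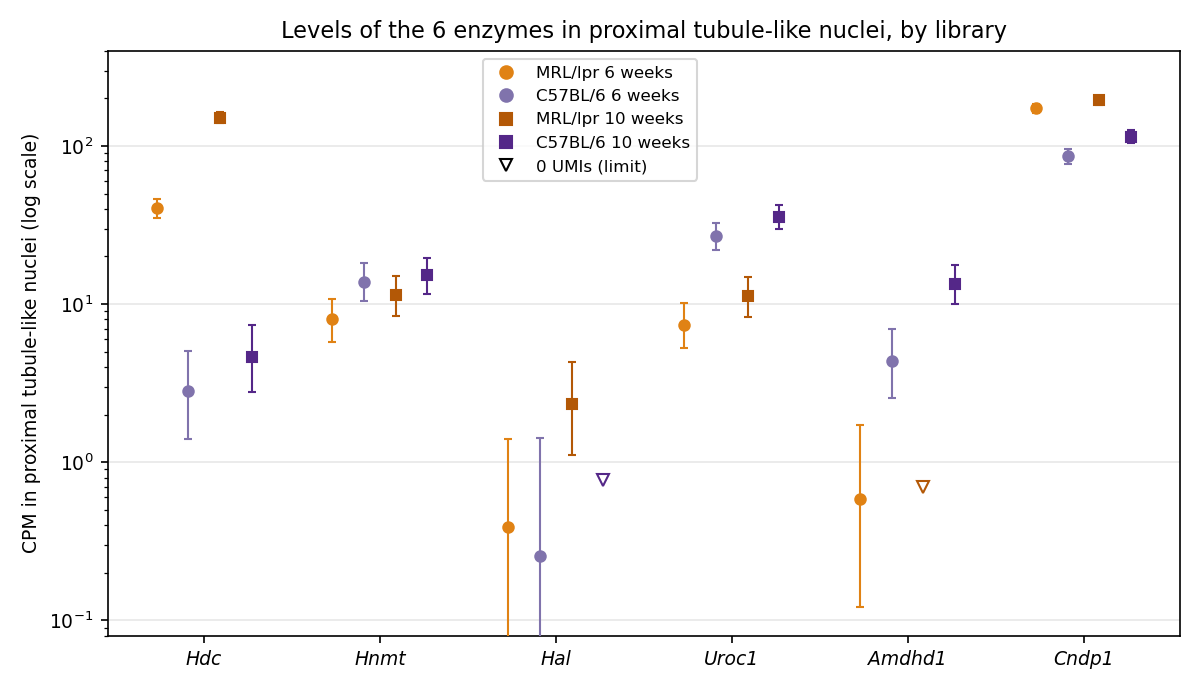
CPM of the 6 enzymes in proximal tubule-like nuclei on a log axis, 1 point per library, with 95% intervals of counting error; open triangles mark 0 UMIs and stand at the 3 UMIs that a count of 0 allows. Hdc reached 40.5 CPM in MRL/lpr against 2.82 CPM in C57BL/6 at 6 weeks and 151.1 CPM in MRL/lpr against 4.66 CPM in C57BL/6 at 10 weeks, while Uroc1 and Amdhd1 were lower in MRL/lpr at both ages.

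Hdc, the enzyme that makes histamine, had 208 UMIs in MRL/lpr and 11 in C57BL/6 at 6 weeks, and 649 in MRL/lpr and 18 in C57BL/6 at 10 weeks in proximal tubule-like nuclei. Its level was 40.5 CPM in MRL/lpr and 2.82 in C57BL/6 at 6 weeks, and 151.1 in MRL/lpr and 4.66 in C57BL/6 at 10 weeks. Both MRL/lpr libraries were above both C57BL/6 libraries, and their intervals did not overlap. The level was 14.4-fold higher in MRL/lpr at 6 weeks (interval 7.87 to 29.2) and 32.4-fold higher at 10 weeks (20.4 to 55.1). With age it was 3.73-fold higher at 10 weeks than at 6 weeks in MRL/lpr (3.18 to 4.38), where 2% of the genes compared were at least 2-fold higher. In C57BL/6 it was 1.65-fold higher at 10 weeks (0.739 to 3.87), an interval that includes no difference. Whether the age ratio differed between strains was not tested.

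Within the proximal tubule the Hdc level was highest in the S3-like nuclei. They held 94 UMIs in MRL/lpr and 3 in C57BL/6 at 6 weeks, and 240 in MRL/lpr and 7 in C57BL/6 at 10 weeks. At 6 weeks S1-like nuclei held 41 UMIs in MRL/lpr and 6 in C57BL/6. Nuclei placed in neither part held 73 in MRL/lpr and 2 in C57BL/6. At 10 weeks S1-like nuclei held 252 in MRL/lpr, more than S3-like nuclei, and 7 in C57BL/6. Nuclei placed in neither part then held 157 in MRL/lpr and 4 in C57BL/6. The S3-like level was 289.4 CPM in MRL/lpr and 13.6 in C57BL/6 at 6 weeks, and 872.9 in MRL/lpr and 19.2 in C57BL/6 at 10 weeks. The level in S1-like nuclei was 11.0 CPM in MRL/lpr and 1.85 in C57BL/6 at 6 weeks, and 73.7 in MRL/lpr and 2.43 in C57BL/6 at 10 weeks. S3-like nuclei were the higher class in every library, though the C57BL/6 values rest on 3 and 7 UMIs. The S3-like level was 26.4-fold the S1-like level in MRL/lpr at 6 weeks (18.1 to 39.0) and 7.38-fold in C57BL/6 at 6 weeks (1.20 to 34.6). At 10 weeks it was 11.8-fold the S1-like level in MRL/lpr (9.88 to 14.2) and 7.94-fold in C57BL/6 (2.38 to 26.5). Of 12004 genes compared, 1.87% were at least 2-fold higher in S3-like nuclei in all 4 libraries. When nuclei with any UMI of the other list were left out, the log2 ratio in MRL/lpr at 10 weeks was 4.35, against 3.57 otherwise.

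Hdc was higher in MRL/lpr in S3-like and in S1-like nuclei. In S3-like nuclei the level was 21.2-fold higher in MRL/lpr at 6 weeks (7.04 to 104.7) and 45.4-fold higher at 10 weeks (21.7 to 114.1). Among the 5340 genes compared in these nuclei, 1.74% were at least 2-fold higher at both ages. In S1-like nuclei the Hdc level was 5.94-fold higher in MRL/lpr at 6 weeks (2.51 to 17.1) and 30.4-fold higher at 10 weeks (14.6 to 76.4), and 2.33% of the 11786 genes compared there were at least 2-fold higher at both ages. At 6 weeks the S1-like level of 11.0 CPM in MRL/lpr was no higher than endothelium-like nuclei allow, which had 10.6 CPM from 1 UMI (0.269 to 59.2). At 10 weeks the S1-like level of 73.7 CPM in MRL/lpr stood above the 16.4 CPM (1.98 to 59.2) of endothelium-like nuclei. Within MRL/lpr, the level at 10 weeks was 6.72-fold that at 6 weeks in S1-like nuclei (4.81 to 9.59). In S3-like nuclei of MRL/lpr it was 3.02-fold that at 6 weeks (2.37 to 3.87). These intervals did not overlap, but they hold counting error only and take UMIs of 1 nucleus as independent. The 252 S1-like UMIs at 10 weeks lay in 119 nuclei. Whether the age ratio differed between S1-like and S3-like nuclei was not tested.

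A UMI of Hdc was seen in a minority of nuclei, and at this depth a nucleus without one may still hold the message. At 6 weeks a UMI of Hdc was seen in 40 of 337 S3-like nuclei in MRL/lpr (11.9%, exact binomial interval 8.62 to 15.8) and in 3 of 215 in C57BL/6 (1.40%, 0.289 to 4.02). At 10 weeks it was seen in 96 of 320 in MRL/lpr (30.0%, 25.0 to 35.4) and in 5 of 349 in C57BL/6 (1.43%, 0.467 to 3.31). Endothelium-like nuclei were used for comparison, and whether they lack the gene was not tested. At 6 weeks a UMI of Hdc was seen there in 1 of 238 in MRL/lpr (0.420%) and in 2 of 1020 in C57BL/6 (0.196%). At 10 weeks it was seen there in 2 of 370 in MRL/lpr (0.541%) and in 0 of 650 in C57BL/6. The MRL/lpr shares in S3-like nuclei were far above this level, while the C57BL/6 intervals overlapped it at both ages, a count of 0 of 650 allowing up to 0.566%. S3-like nuclei were also deeper, with medians of 826 to 981 UMIs, against 286 to 362 UMIs in endothelium-like nuclei.

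Outside the proximal tubule Hdc was rarely counted. All other classes together held 6 UMIs in MRL/lpr and 3 in C57BL/6 at 6 weeks, and 18 in MRL/lpr and 2 in C57BL/6 at 10 weeks. Of the 18 UMIs, 12 lay in 6 distal convoluted tubule-like nuclei. Proximal tubule-like nuclei held 97.2% of the Hdc UMIs of classed nuclei in MRL/lpr and 78.6% in C57BL/6 at 6 weeks, and 97.3% in MRL/lpr and 90.0% in C57BL/6 at 10 weeks. Mast cells and basophils are the classic histamine makers, and of 9 genes of these cells 1 to 4 were seen in a library. Over all kept nuclei these genes summed to 12 UMIs in MRL/lpr and 11 in C57BL/6 at 6 weeks, and 16 in MRL/lpr and 16 in C57BL/6 at 10 weeks. In proximal tubule-like nuclei they summed to 6 UMIs in MRL/lpr and 2 in C57BL/6 at 6 weeks, and 2 in MRL/lpr and 0 in C57BL/6 at 10 weeks. The mast cell proteases Mcpt4 and Tpsab1, the IgE receptor chain Fcer1a and the basophil protease Mcpt8 were at 0 in every library.

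**Figure D2:**
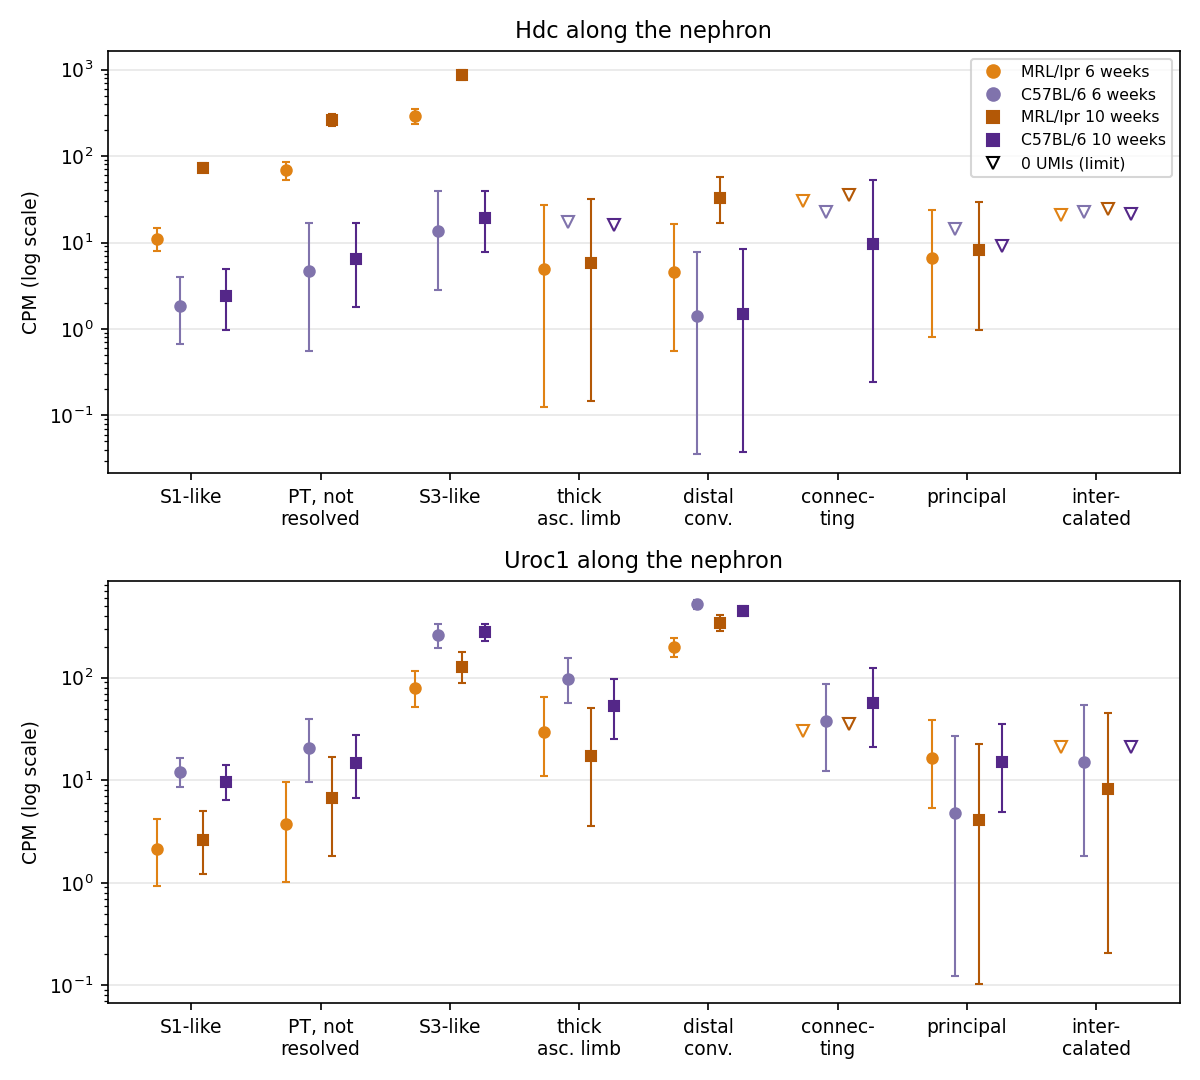
CPM of Hdc (upper panel) and Uroc1 (lower panel) on log axes in S1-like, not resolved and S3-like proximal tubule (PT) nuclei and in later nephron classes, 1 point per library with 95% intervals of counting error; open triangles mark 0 UMIs at the limit of 3 UMIs. Hdc was highest in S3-like nuclei, whereas Uroc1 was counted in S3-like and in distal convoluted tubule-like nuclei, with MRL/lpr below C57BL/6 in both classes at each age.

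Hnmt, which inactivates histamine inside cells, was counted at low depth. It had 41 UMIs in MRL/lpr and 54 in C57BL/6 at 6 weeks, and 49 in MRL/lpr and 59 in C57BL/6 at 10 weeks in proximal tubule-like nuclei. The level was 7.99 CPM in MRL/lpr and 13.8 in C57BL/6 at 6 weeks, and 11.4 in MRL/lpr and 15.3 in C57BL/6 at 10 weeks. MRL/lpr was the lower strain at each age, but the intervals of the levels overlapped. It was 1.73-fold lower in MRL/lpr at 6 weeks (1.13 to 2.67) and 1.34-fold lower at 10 weeks (0.901 to 2.00), so the second interval includes no difference. With the level of endothelium-like and podocyte-like nuclei of each library subtracted, the 6 week log2 ratio turned to 0.36. That turn rested on 0 UMIs in MRL/lpr and 3 in C57BL/6 (7.61 CPM, 1.57 to 22.2) in these nuclei. The subtracted ratio carries no interval. Hnmt was also counted in the other classes, with 20 UMIs in MRL/lpr and 36 in C57BL/6 at 6 weeks, and 21 in MRL/lpr and 27 in C57BL/6 at 10 weeks. Its S3-like counts of 1 to 3 UMIs in a library were too few to place it along the tubule.

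Hal, the first enzyme of histidine breakdown, was barely counted. Proximal tubule-like nuclei held 2 UMIs in MRL/lpr and 1 in C57BL/6 at 6 weeks, and 10 in MRL/lpr and 0 in C57BL/6 at 10 weeks. The other classes held 5 UMIs in MRL/lpr and 1 in C57BL/6 at 6 weeks, and 3 in MRL/lpr and 0 in C57BL/6 at 10 weeks. At 10 weeks MRL/lpr had at least 3.00-fold the C57BL/6 level if its 10 UMIs, in 10 nuclei, are taken as exact. At 6 weeks 2 UMIs in MRL/lpr against 1 in C57BL/6 gave no usable ratio. None of the 10 nuclei was S3-like.

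Uroc1, which carries out the step after Hal, had 38 UMIs in MRL/lpr and 105 in C57BL/6 at 6 weeks, and 48 in MRL/lpr and 138 in C57BL/6 at 10 weeks in proximal tubule-like nuclei. The level was 7.41 CPM in MRL/lpr and 26.9 in C57BL/6 at 6 weeks, and 11.2 in MRL/lpr and 35.7 in C57BL/6 at 10 weeks. Both MRL/lpr libraries were below both C57BL/6 libraries. The level was 3.64-fold lower in MRL/lpr at 6 weeks (2.49 to 5.42) and 3.20-fold lower at 10 weeks (2.29 to 4.54). The 10 week log2 ratio of -1.68 was -0.90 with Lrp2 and Slc34a1 as the only proximal tubule markers, and -4.01 with the level of endothelium-like and podocyte-like nuclei subtracted. The level subtracted in MRL/lpr, 9.37 CPM (1.13 to 33.8), rested on 2 UMIs, and the subtracted ratio carries no interval. With age the Uroc1 level was 1.51-fold higher at 10 weeks in MRL/lpr (0.966 to 2.37) and 1.33-fold higher at 10 weeks in C57BL/6 (1.02 to 1.73).

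Within the proximal tubule the Uroc1 level was highest in S3-like nuclei, as that of Hdc was, with the strains in the opposite order. S3-like nuclei held 26 UMIs in MRL/lpr and 57 in C57BL/6 at 6 weeks, and 35 in MRL/lpr and 101 in C57BL/6 at 10 weeks. Their level was 80.1 CPM in MRL/lpr and 259.1 in C57BL/6 at 6 weeks, and 127.3 in MRL/lpr and 277.6 in C57BL/6 at 10 weeks. S1-like nuclei had 2.14 CPM in MRL/lpr and 12.01 in C57BL/6 at 6 weeks, and 2.63 in MRL/lpr and 9.70 in C57BL/6 at 10 weeks. The S3-like level was the higher in every library, by 37.4-fold in MRL/lpr (16.4 to 95.5) and 21.6-fold in C57BL/6 (14.1 to 33.3) at 6 weeks. At 10 weeks it was higher by 48.3-fold in MRL/lpr (22.8 to 114.4) and 28.6-fold in C57BL/6 (18.7 to 45.2). When nuclei with any UMI of the other list were left out, the log2 ratio in C57BL/6 at 6 weeks was 5.59, against 4.43 otherwise.

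In S3-like and in S1-like nuclei the Uroc1 level was lower in MRL/lpr. The S3-like level was 3.24-fold lower in MRL/lpr at 6 weeks (2.00 to 5.36) and 2.18-fold lower at 10 weeks (1.47 to 3.30), and 1.89% of the genes compared in these nuclei were at least 2-fold lower at both ages. In S1-like nuclei the level was 5.61-fold lower in MRL/lpr at 6 weeks (2.58 to 13.9) and 3.68-fold lower at 10 weeks (1.69 to 8.87). The S1-like 12.01 CPM in C57BL/6 at 6 weeks lay within the interval of endothelium-like nuclei, 6.41 CPM from 2 UMIs (0.777 to 23.2). The S1-like 2.63 CPM in MRL/lpr at 10 weeks was below their 8.19 CPM from 1 UMI (0.207 to 45.6). The part of RNA from other nuclei in the S1-like ratios was not tested.

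Distal convoluted tubule-like nuclei were a further site of Uroc1. They held 88 UMIs in MRL/lpr and 368 in C57BL/6 at 6 weeks, and 125 in MRL/lpr and 299 in C57BL/6 at 10 weeks. The level was 200.3 CPM in MRL/lpr and 519.5 in C57BL/6 at 6 weeks, and 343.6 in MRL/lpr and 445.7 in C57BL/6 at 10 weeks. This class held most Uroc1 UMIs of classed nuclei, 64.2% in MRL/lpr and 73.6% in C57BL/6 at 6 weeks, and 69.1% in MRL/lpr and 64.7% in C57BL/6 at 10 weeks. A Uroc1 UMI was seen in 11.7% of its nuclei in MRL/lpr and 23.9% in C57BL/6 at 6 weeks, and 16.3% in MRL/lpr and 19.9% in C57BL/6 at 10 weeks. In endothelium-like nuclei a Uroc1 UMI was seen at 6 weeks in 0 of 238 in MRL/lpr and 2 of 1020 in C57BL/6, and at 10 weeks in 1 of 370 in MRL/lpr and 2 of 650 in C57BL/6. Slc12a3, the thiazide-sensitive cotransporter and a marker that set this class, had 22992 to 29749 CPM there and 96.2 to 252.8 CPM in proximal tubule-like nuclei.

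The strain difference in the distal convoluted tubule was narrower at 10 weeks. Uroc1 was 2.59-fold lower in MRL/lpr at 6 weeks (2.05 to 3.31) and 1.30-fold lower at 10 weeks (1.05 to 1.61). It thus missed the 2-fold mark at 10 weeks, and 1.35% of the 7862 genes compared in this class were at least 2-fold lower at both ages. Its level was 1.72-fold higher at 10 weeks than at 6 weeks in MRL/lpr (1.30 to 2.28). In C57BL/6 it was 1.17-fold lower at 10 weeks than at 6 weeks (0.998 to 1.36). In thick ascending limb-like nuclei Uroc1 had 6 UMIs in MRL/lpr and 17 in C57BL/6 at 6 weeks, and 3 in MRL/lpr and 10 in C57BL/6 at 10 weeks. It was 3.28-fold lower in MRL/lpr there at 6 weeks (1.23 to 10.2) and 3.07-fold lower at 10 weeks (0.790 to 17.4), where the interval includes no difference.

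Amdhd1, which opens the ring of the Uroc1 product, had 3 UMIs in MRL/lpr and 17 in C57BL/6 at 6 weeks, and 0 in MRL/lpr and 52 in C57BL/6 at 10 weeks in proximal tubule-like nuclei. The level was 0.585 CPM in MRL/lpr and 4.36 in C57BL/6 at 6 weeks, and 0 in MRL/lpr and 13.5 in C57BL/6 at 10 weeks. It was 7.46-fold lower in MRL/lpr at 6 weeks (2.16 to 39.7), and 3.50-fold lower over all kept nuclei (1.61 to 8.43). At 10 weeks it was at least 19.3-fold lower if the 52 C57BL/6 UMIs are taken as exact, since a count of 0 over the 5485 MRL/lpr nuclei allows up to 0.699 CPM. In C57BL/6 the level was 3.09-fold higher at 10 weeks than at 6 weeks (1.76 to 5.70), and 0.941% of genes compared were at least 2-fold higher with age in that strain. Its C57BL/6 UMIs did not separate the segments, with an S3-like to S1-like ratio of 2.68 at 6 weeks (0.289 to 12.3) and 1.36 at 10 weeks (0.468 to 3.27). The other classes held 3 UMIs in MRL/lpr and 6 in C57BL/6 at 6 weeks, and 2 in MRL/lpr and 5 in C57BL/6 at 10 weeks. Hal and Amdhd1 are neighbours on chromosome 10 with no other protein-coding gene between them in RefSeq.

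Of 8 genes best known from hepatocytes, 5 were lower in MRL/lpr at both ages, as Uroc1 and Amdhd1 were: Alb, Apoa1, Fga, Fgb and Fgg. Of all 12280 genes compared, 3561 were lower at both ages. No minimum of UMIs was asked of the hepatocyte genes. Alb at 6 weeks had 9 UMIs in each strain, at 1.75 CPM in MRL/lpr and 2.31 in C57BL/6. The 8 genes of the hepatocyte list summed to 47 UMIs in MRL/lpr and 154 in C57BL/6 at 6 weeks, and 74 in MRL/lpr and 257 in C57BL/6 at 10 weeks in proximal tubule-like nuclei. That was 9.16 CPM in MRL/lpr and 39.5 in C57BL/6 at 6 weeks, and 17.2 in MRL/lpr and 66.5 in C57BL/6 at 10 weeks. Of the 8 genes, 5 were seen in each MRL/lpr library and 6 in each C57BL/6 library. Cps1 and Ahsg, 2 abundant liver genes, were at 0 in every library, and Fgb was at 0 in both MRL/lpr libraries. Apoh had 4 UMIs in MRL/lpr and 3 in C57BL/6 at 6 weeks, and 5 in MRL/lpr and 5 in C57BL/6 at 10 weeks. Fga, a fibrinogen chain, gave 9 UMIs in MRL/lpr and 61 in C57BL/6 at 6 weeks, and 33 in MRL/lpr and 97 in C57BL/6 at 10 weeks. Their part in the Uroc1 and Amdhd1 ratios was not tested.

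Cndp1, the carnosinase gene, had 890 UMIs in MRL/lpr and 335 in C57BL/6 at 6 weeks, and 834 in MRL/lpr and 442 in C57BL/6 at 10 weeks in proximal tubule-like nuclei. The level was 173.5 CPM in MRL/lpr and 85.9 in C57BL/6 at 6 weeks, and 194.2 in MRL/lpr and 114.4 in C57BL/6 at 10 weeks. Both MRL/lpr libraries were above both C57BL/6 libraries. The level was 2.02-fold higher in MRL/lpr at 6 weeks (1.78 to 2.30) and 1.70-fold higher at 10 weeks (1.51 to 1.91). With age it was 1.12-fold higher at 10 weeks in MRL/lpr (1.02 to 1.23) and 1.33-fold higher at 10 weeks in C57BL/6 (1.15 to 1.54). It was spread along the tubule, with S3-like to S1-like log2 ratios of -0.03 to 0.80. The strain log2 ratio turned to -0.47 at 6 weeks and -0.82 at 10 weeks when the level of endothelium-like and podocyte-like nuclei of the same library was subtracted. The level subtracted was 66.4% of the proximal tubule level in MRL/lpr and 5.90% in C57BL/6 at 6 weeks. At 10 weeks it was 67.5% in MRL/lpr and 2.84% in C57BL/6. It rested on 17 UMIs in MRL/lpr and 2 in C57BL/6 at 6 weeks, and on 28 and 1 at 10 weeks. The subtracted ratios carry no interval, and whether this level is free tubule RNA was not tested.

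Outside the proximal tubule the Cndp1 strain ratio was much wider. All other classes together held 178 UMIs in MRL/lpr and 5 in C57BL/6 at 6 weeks, and 161 in MRL/lpr and 15 in C57BL/6 at 10 weeks. The level was 130.8 CPM in MRL/lpr and 2.74 in C57BL/6 at 6 weeks, and 127.1 in MRL/lpr and 8.38 in C57BL/6 at 10 weeks. It was 47.7-fold higher in MRL/lpr at 6 weeks (20.1 to 148.7) and 15.2-fold higher at 10 weeks (8.92 to 27.7), and 1.46% of the 11430 genes compared over these classes were at least 2-fold higher at both ages. With mixed nuclei kept, the log2 ratio was 4.54 at 6 weeks and 3.20 at 10 weeks, against 5.58 at 6 weeks and 3.92 at 10 weeks otherwise. A Cndp1 UMI was seen in 6.61% of these nuclei in MRL/lpr and 0.126% in C57BL/6 at 6 weeks, and 5.37% in MRL/lpr and 0.373% in C57BL/6 at 10 weeks.

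The same order of strains was seen class by class. Principal cell-like nuclei of the collecting duct held 57 UMIs in MRL/lpr and 1 in C57BL/6 at 6 weeks, and 40 in MRL/lpr and 6 in C57BL/6 at 10 weeks. There the level was 39.4-fold higher in MRL/lpr at 6 weeks (6.79 to 1583) and 9.02-fold higher at 10 weeks (3.80 to 26.0). With nuclei of at least 500 genes only, the principal cell-like log2 ratio was at least 0.52 at 6 weeks and 1.41 at 10 weeks, against 5.30 at 6 weeks and 3.17 at 10 weeks otherwise. The 6 week bound comes from a count of 0 in C57BL/6 and does not show that the ratio changed. Intercalated cell-like nuclei, the acid and base transporting cells of the duct, held 33 UMIs in MRL/lpr and 0 in C57BL/6 at 6 weeks, and 29 in MRL/lpr and 1 in C57BL/6 at 10 weeks. Podocyte-like nuclei of the glomerulus held 8 UMIs in MRL/lpr and 0 in C57BL/6 at 6 weeks, and 11 in MRL/lpr and 0 in C57BL/6 at 10 weeks. In endothelium-like nuclei there were 9 UMIs in MRL/lpr and 2 in C57BL/6 at 6 weeks, and 17 in MRL/lpr and 1 in C57BL/6 at 10 weeks. Classes without tubule cells thus showed the order too, although macrophage-like nuclei, 20 to 71 in a library, had 0 UMIs of Cndp1 in all libraries, where a count of 0 allows 121.4 CPM or more.

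Levels of proximal tubule genes outside the tubule are given beside those of Cndp1. Slc7a7, Slc2a2, Prodh2, Gatm and Slc6a19, 5 S1 genes, stood outside the proximal tubule at 9.87% of their proximal tubule level in MRL/lpr and 7.80% in C57BL/6 at 6 weeks, and 7.91% in MRL/lpr and 6.36% in C57BL/6 at 10 weeks. Cndp1 stood at 75.4% of its proximal tubule level in MRL/lpr and 3.19% in C57BL/6 at 6 weeks, and 65.4% in MRL/lpr and 7.33% in C57BL/6 at 10 weeks. In endothelium-like and podocyte-like nuclei together the 5 S1 genes stood at 7.47% in MRL/lpr and 7.58% in C57BL/6 at 6 weeks. At 10 weeks they stood there at 5.51% in MRL/lpr and 4.49% in C57BL/6. In nuclei outside the proximal tubule without a proximal tubule marker UMI, a set taken after the data were seen, Cndp1 had 77 UMIs in MRL/lpr and 3 in C57BL/6 at 6 weeks, and 81 in MRL/lpr and 5 in C57BL/6 at 10 weeks. That was 128.6 CPM in MRL/lpr and 3.52 in C57BL/6 at 6 weeks, and 130.5 in MRL/lpr and 5.49 in C57BL/6 at 10 weeks. The 5 S1 genes were still counted in this set, at 265.5 CPM in MRL/lpr and 298.1 in C57BL/6 at 6 weeks, and 323.8 in MRL/lpr and 172.4 in C57BL/6 at 10 weeks. Over all nuclei outside the tubule they had 348.9 CPM in MRL/lpr and 336.7 in C57BL/6 at 6 weeks, and 376.4 in MRL/lpr and 253.2 in C57BL/6 at 10 weeks. The part of free tubule RNA in the Cndp1 counts was not tested.

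Neighbours of Cndp1 on chromosome 18, named after their values were seen, were counted outside the proximal tubule in both strains. Cndp2, a related peptidase, had 41 UMIs in MRL/lpr and 42 in C57BL/6 at 6 weeks, and 40 in MRL/lpr and 53 in C57BL/6 at 10 weeks there. Zfp407 had 266 UMIs in MRL/lpr and 313 in C57BL/6 at 6 weeks, and 291 in MRL/lpr and 333 in C57BL/6 at 10 weeks. GENCODE mouse release 21 places 1 antisense gene across Cndp1, AC121513.1, which was not analysed here. Whether counting used strand is not given in the sources used here, so reads of the pair cannot be told apart.

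**Figure D3:**
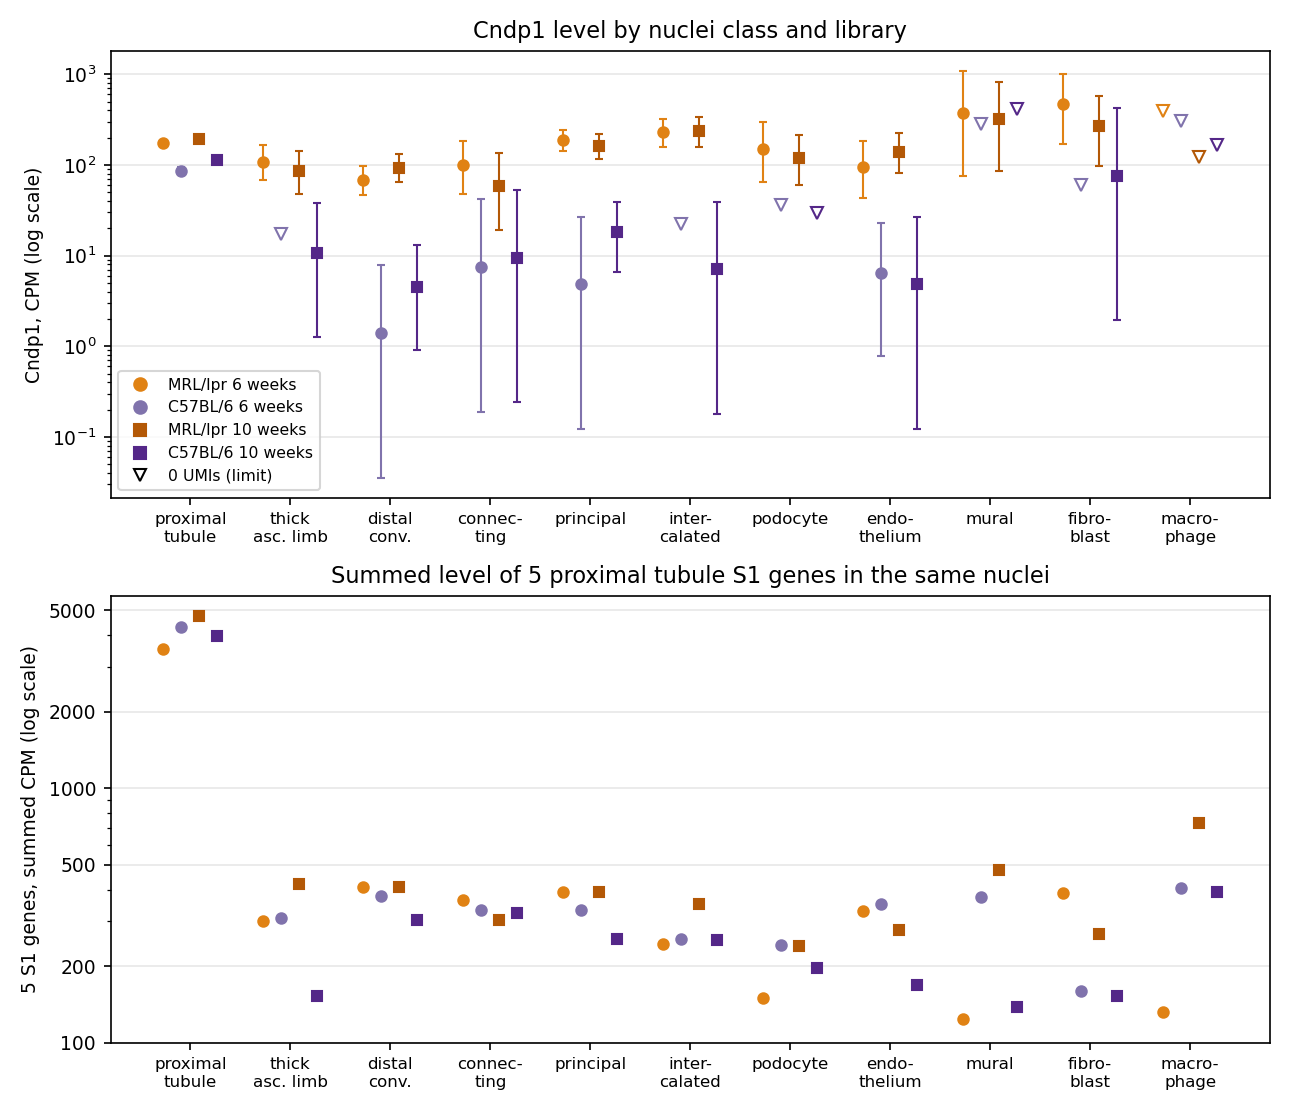
Cndp1 (upper panel) and the summed level of 5 S1 genes (lower panel) in CPM on log axes, by class and library; bars are 95% intervals of counting error and open triangles mark 0 UMIs at the limit of 3 UMIs. In principal cell-like nuclei Cndp1 stood at 189.6 CPM in MRL/lpr and 4.81 CPM in C57BL/6 at 6 weeks and at 162.7 CPM in MRL/lpr and 18.0 CPM in C57BL/6 at 10 weeks; the S1 genes are drawn for the same classes and libraries.

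The rest of the pathway was counted from 5 lists with 49 genes, the members included, of which 32 had at least 50 UMIs in proximal tubule-like nuclei. Of the 32, the 2-fold mark was passed upward at both ages by 1 gene (Hdc) and downward by 3 (Uroc1, Amdhd1 and Slc38a3). Of these 4, all but Slc38a3 were members chosen on this contrast. Without the members, 27 genes were compared, 0 were at least 2-fold higher at both ages and 1 was lower, with median log2 ratios of -0.13 at 6 weeks and -0.04 at 10 weeks. Of all 12280 genes compared, 2.43% were at least 2-fold higher at both ages and 1.86% lower, so nothing is read from 1 gene of 27. Over all nuclei of a library, the members included, the count of higher genes was 2, where 2.23% of 14041 genes compared were higher. The count of lower genes was 2 with Lrp2 and Slc34a1 as the only markers, with nuclei thinned to 500 UMIs, and with a minimum of 100 UMIs a gene. In these settings 1.52% to 1.72% of all genes compared were lower. The median log2 ratio of the 32 was -0.16 at 6 weeks and -0.05 at 10 weeks, beside -0.01 at 6 weeks and 0.05 at 10 weeks over all 12280 genes. Slc38a3, a transporter of glutamine and histidine, had 26 UMIs in MRL/lpr and 118 in C57BL/6 at 6 weeks, and 27 in MRL/lpr and 223 in C57BL/6 at 10 weeks. It was 5.97-fold lower in MRL/lpr at 6 weeks (3.88 to 9.52) and 9.18-fold lower at 10 weeks (6.14 to 14.2).

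In the list of histidine breakdown to glutamate, 5 of the 7 genes compared were lower in MRL/lpr at both ages, as were 3561 of all 12280 genes. Of these 5, Uroc1 and Amdhd1 were members chosen on this contrast. The genes Mthfd1 and Mthfs, which act on folates and are named outside the rule, were lower at 6 weeks and higher at 10 weeks. Mthfd1 had log2 ratios of -0.10 at 6 weeks (-0.25 to 0.05) and 0.06 at 10 weeks (-0.10 to 0.21). Mthfs had -0.49 at 6 weeks (-0.78 to -0.21) and 0.21 at 10 weeks (-0.09 to 0.51). All of these intervals but that of Mthfs at 6 weeks include no difference. Over the 7 genes, the median log2 ratio was -0.55 at 6 weeks and -0.82 at 10 weeks. Glud1, the glutamate dehydrogenase, had log2 ratios of -0.56 at 6 weeks and -0.87 at 10 weeks. Aldh1l1, which oxidises a folate-bound carbon, had log2 ratios of -0.43 at 6 weeks and -0.20 at 10 weeks. Ftcd, named here outside the rule for its place in the path, passes a carbon of histidine to folate and had 26 UMIs in MRL/lpr and 29 in C57BL/6 at 6 weeks, and 44 in MRL/lpr and 70 in C57BL/6 at 10 weeks. Ftcd carries out the step after Amdhd1 and was 1.47-fold lower in MRL/lpr at 6 weeks (0.834 to 2.59, which includes no difference) and 1.77-fold lower at 10 weeks (1.20 to 2.64).

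For histamine synthesis and breakdown, 8 genes were compared, with a median log2 ratio of 0.05 at 6 weeks and -0.08 at 10 weeks. Aldh2, an aldehyde dehydrogenase, had log2 ratios of 0.31 at 6 weeks and -0.04 at 10 weeks. Ddc, the decarboxylase of dopa and a relative of Hdc, had 0.20 at 6 weeks and -0.77 at 10 weeks. Aoc1, the diamine oxidase that degrades histamine outside cells, was likewise named outside the rule and had 51 UMIs in MRL/lpr and 33 in C57BL/6 at 6 weeks, and 65 in MRL/lpr and 36 in C57BL/6 at 10 weeks. It was 1.18-fold higher in MRL/lpr at 6 weeks (0.744 to 1.88) and 1.62-fold higher at 10 weeks (1.07 to 2.51).

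Of 10 genes of histamine receptors and transport, 3 were compared, and none was 2-fold apart at both ages. The receptors Hrh1 to Hrh4 had 2 UMIs in all over these nuclei, 1 of Hrh1 in MRL/lpr at 10 weeks and 1 of Hrh4 in C57BL/6 at 6 weeks. The exporter Slc47a1 had log2 ratios of 0.63 at 6 weeks and -0.06 at 10 weeks.

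Of the carnosine and anserine list, 4 genes were compared, and Cndp1 had the widest ratio of the 4 at both ages. Slc15a2, the dipeptide transporter of the tubule, had log2 ratios of 0.18 at 6 weeks and -0.55 at 10 weeks. In the list of histidine uptake and use, with 10 genes compared, the amino acid transporter Slc7a8 had -0.77 at 6 weeks and -0.53 at 10 weeks. Slc6a19, the neutral amino acid transporter of the brush border, had -0.05 at 6 weeks and 0.65 at 10 weeks. Picked after their values were seen, Slc15a4, a histidine and peptide transporter of lysosomes, was 1.29-fold higher in MRL/lpr at 6 weeks (0.925 to 1.81) and 3.41-fold higher at 10 weeks (2.44 to 4.87). Slc43a2, a neutral amino acid transporter named likewise, was 2.49-fold lower in MRL/lpr at 6 weeks (2.26 to 2.74) and 1.53-fold lower at 10 weeks (1.39 to 1.68).

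**Figure D4:**
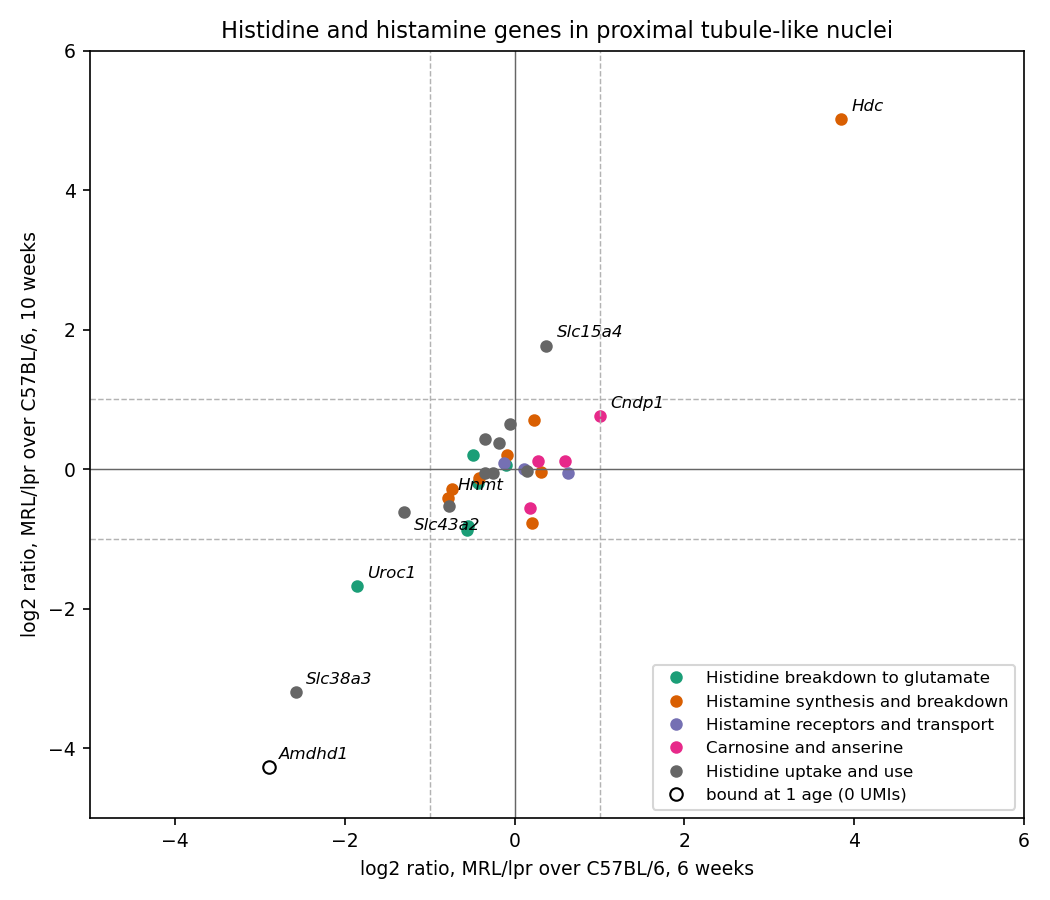
Each point is 1 of 32 pathway genes in proximal tubule-like nuclei, coloured by role, placed by its log2 strain ratio (MRL/lpr over C57BL/6), with 6 weeks on the x axis and 10 weeks on the y axis; dashed lines mark 2-fold and the open circle is a bound set by 0 UMIs at 10 weeks. Hdc stands alone at the upper right with log2 ratios of 3.85 and 5.02, and Uroc1, Slc38a3 and Amdhd1 stand at the lower left.

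Genes with a pattern most like each member were found by Pearson's r of log2(CPM + 10) over 52 sums, 13 classes in each of 4 libraries, among 10967 genes with at least 200 UMIs. The sums share libraries, depth and free RNA, so the values are descriptive. Closest to Hdc were Akr1c20 (r = 0.863), Sntg2 (0.827) and Gm15217 (0.788). Akr1c20 had 162 UMIs in MRL/lpr and 15 in C57BL/6 at 6 weeks, and 195 in MRL/lpr and 29 in C57BL/6 at 10 weeks in proximal tubule-like nuclei, the strain order of Hdc. Closest to Uroc1 were Dusp18 (0.713), Rab27a (0.705) and Fam107a (0.704). Dusp18 had 29 UMIs in MRL/lpr and 15 in C57BL/6 at 6 weeks, and 30 in MRL/lpr and 17 in C57BL/6 at 10 weeks there, so its strain order was not that of Uroc1. Closest to Hnmt were Sp3os (0.732), Ube2f (0.683) and Ddx20 (0.652). Closest to Cndp1 were Idh1 (0.708), Mgat3 (0.707) and Lyplal1 (0.706). Amdhd1 and Hal held fewer than 100 UMIs in the classes and were not compared in this way.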

How the data were processed

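Single-nucleus UMI counts per gene were used as the authors deposited them, as 1 matrix for each of 4 libraries. The file headers name Cell Ranger 5.0.0, whereas version 3.1.0 stands in the submitters' processing notes. Genome build, intron counting and removal of free RNA are steps not given in the sources used here. Intronic counting would change levels of long genes.

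Barcodes were filtered, classed by marker UMIs under a rule set after the files were seen (at least 6 UMIs of proximal tubule markers or 3 of another class), and summed by class and library into CPM. No doublet caller was run, and mixed nuclei were left out in its place, so 2 nuclei of 1 class in a droplet remain. S1-like or S3-like nuclei had at least 2 UMIs of 1 list and fewer of the other. Ratios carry conditional exact binomial 95% intervals, levels Poisson intervals. UMIs of 1 library share its preparation. A count of 0 was set to 3 UMIs for a bound. The other count was taken as exact, so a bound leaves out its counting error. A gene was compared in a class where its UMIs in all 4 libraries summed to 50 or more, and no p-value was computed. Python 3.11.15, numpy 2.4.6, scipy 1.17.1, pandas 2.3.3 and matplotlib 3.10.9 were used, with R 4.3.3 and edgeR 4.0.16 for TMM scaling factors on summed counts alone. The ratios and counts were tested on simulated data.

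Named were all members, in each pathway list the 2 genes with most UMIs and those 2-fold apart at both ages, and the 3 most alike genes of each member with at least 100 UMIs, and exceptions are marked. Of the genes this rule names, 1 is not reported here. The members and lists were chosen with earlier results of these data known. Alternatives covered barcode filters, markers, scaling, free RNA, thinning and gene minimums.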

Additional observations from a re-analysis of the deposited data

Results flagged for a closer look

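Uroc1 over all classes outside the proximal tubule moved in opposite directions with age in the 2 strains. The log2 ratio of 10 weeks over 6 weeks was 0.53 in MRL/lpr and -0.26 in C57BL/6. The counts behind it were 133 UMIs in MRL/lpr at 10 weeks and 99 at 6 weeks, and 324 UMIs in C57BL/6 at 10 weeks and 395 at 6 weeks. With 1 library in each group, the difference between the strains was not tested. Most of these UMIs lay in distal convoluted tubule-like nuclei, with a log2 change by age of 0.78 for MRL/lpr and -0.22 for C57BL/6.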

How the results depend on the processing

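Of 278 values recomputed under other settings, 255 stayed within counting error or 1.5 times a count or bound, 20 were marked as moved and 3 reversed. A bound from a count of 0 was marked as moved where its value lay outside that range. Such values, given below as at least or at most, do not show that a ratio changed. The causes of the moves were not tested. All values here are log2 ratios of MRL/lpr over C57BL/6 unless named otherwise. Subtracting the level of endothelium-like and podocyte-like nuclei reversed Hnmt at 6 weeks to 0.36 (-0.79 before) and Cndp1 to -0.47 at 6 weeks (1.01 before) and -0.82 at 10 weeks (0.76 before), and moved Uroc1 at 10 weeks to -4.01. Values after subtraction carry no interval. For Hnmt the subtracted level rested on 0 UMIs in MRL/lpr and 3 in C57BL/6. For Uroc1 it rested on 2 UMIs in MRL/lpr. For Cndp1 it rested on 17 UMIs in MRL/lpr and 2 in C57BL/6 at 6 weeks, and on 28 and 1 at 10 weeks. Over all nuclei, Cndp1 was 1.59 at 6 weeks and 1.21 at 10 weeks, Amdhd1 -1.81 at 6 weeks (-2.90 before, within its interval) and -4.99 at 10 weeks, Hal at 10 weeks 3.08, and 2 pathway genes were higher. Thinned to 500 UMIs, Amdhd1 at 10 weeks was at most -3.42 and Hal at least 0.43. Hal was 2.23 at 10 weeks with mixed nuclei kept, and Uroc1 was -0.90 with only Lrp2 and Slc34a1 as markers. With at least 500 genes, Cndp1 at 6 weeks was at least 4.06 outside the proximal tubule (5.58 before), at least 2.32 in the distal convoluted tubule (5.60 before) and at least 0.52 in principal cells, where it was 1.41 at 10 weeks. Without any proximal tubule marker UMI, chosen after seeing the data, Cndp1 was at least 2.08 in the distal convoluted tubule at 6 weeks and 4.93 in principal cells at 10 weeks. With the highest of the 4 minimum depths asked of every library, Cndp1 in endothelium at 10 weeks was at least 1.67 (4.85 before). S3-like over S1-like nuclei without UMIs of the other list gave 5.59 for Uroc1 in C57BL/6 at 6 weeks and 4.35 for Hdc in MRL/lpr at 10 weeks. With at least 20 UMIs a gene, 448 genes were 2-fold higher at both ages, against 298. The strain ratios of Hdc did not move under any setting in which they could be computed. At 6 weeks the subtraction gave no Hdc ratio. The C57BL/6 level of 2.82 CPM was below the 5.07 CPM of its endothelium-like and podocyte-like nuclei. No paired analysis was possible because the groups, with 1 library each, share fewer than 2 replicate numbers; a fit of strain with age as a second term, which would leave 1 residual degree of freedom, was not made. Depth limits Hal, Amdhd1 and Hnmt most.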

Other observations

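Nuclei with too few marker UMIs for a class held 18 Hdc UMIs in 6 nuclei of MRL/lpr at 6 weeks (115.6 CPM), against 1 UMI in C57BL/6 at 6 weeks, and 2 UMIs in MRL/lpr and 2 in C57BL/6 at 10 weeks. The same nuclei held 36 Cndp1 UMIs in MRL/lpr and 4 in C57BL/6 at 6 weeks, and 45 in MRL/lpr and 4 in C57BL/6 at 10 weeks. These nuclei entered no comparison of classes under the main rule, and they counted in the values over all nuclei and all kept nuclei.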
